A study of Drosophila melanogaster with 78 samples.

Results

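The circRNAs with the longest genomic spans are 398 of the 1194 circRNAs counted in the total RNA libraries, ranked by the distance between the 2 ends of the backsplice on BDGP6, the fly genome build of the files. No read count entered this choice. Their spans run from 1930 to 125063 bases with a median of 4184.5, against 51 to 1929 bases and a median of 816.5 in the remaining 796. The last circRNAs inside the limit come from CG32982 (1936 bases) and lola (1930 bases), and the first outside it from spir (1929 bases) and pHCl (1926 bases). 74 members span more than 10000 bases.

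Total RNA depleted of ribosomal RNA came from brain, thorax without gut, gut with Malpighian tubules, and the labelled fat body, which is the abdomen freed of gut and ovaries. The flies were once-mated females aged 10, 30 or 50 days, either wDah (white Dahomey, the wild-type control) or dilp 2-3,5 mutants, which lack the genes for insulin-like peptides 2, 3 and 5. Both genotypes share the outbred white Dahomey background, into which the mutations had been backcrossed, and this strain carries the bacterium Wolbachia. Each combination of genotype, tissue and age had 3 libraries, described as biological replicates, which made 72, and 6 further libraries held polysome-enriched fat body RNA of day 10. The day 10 samples were made independently of the others, so age and batch cannot be told apart in any comparison with day 10.

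A circRNA forms when the end of an exon is spliced back to the start of the same or an earlier exon, a reaction called backsplicing that competes with ordinary splicing of the host gene. The closed loop has no free ends for exonucleases, and circRNAs are long-lived and abundant in nervous tissue, where many host genes are long and rich in introns. The genomic span counts exons and introns between the 2 backspliced ends. Spliced circRNAs keep mostly exons, so that the loop itself is usually far shorter than its span.

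The backsplice junction is the only stretch of sequence that a circRNA does not share with its host mRNA, and it is what the circular reads were counted on. Each junction below has the last 30 bases before the backsplice in lower case and the first 30 bases after it in capitals, read 5′ to 3′ along the transcript from the reference genome, BDGP6. The first pair, from CG45784, has the longest spans, chr3R:1342196-1467258 and chr3R:1342196-1455091 on the plus strand, and shows 1 acceptor joined to 2 donors. The pair from LpR2, a lipophorin receptor, lies at chr3R:25705931-25709517 and chr3R:25706287-25709517 on the minus strand and shares its acceptor likewise. Rdl, a GABA-gated chloride channel, holds another such pair at chr3L:9157941-9162974 and chr3L:9159610-9162974 on the minus strand. The last 4 are junctions whose values differed between genotypes or tissues, from unc-13-4A (chr3L:7276964-7279357, minus), CG42268 (chr3L:9747135-9750299, minus), beat-Vc (chr3R:12752418-12754790, minus) and GluClalpha (chr3R:19760265-19774704, plus).
CG45784, longer: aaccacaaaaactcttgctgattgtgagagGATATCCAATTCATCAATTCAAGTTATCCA
CG45784, shorter: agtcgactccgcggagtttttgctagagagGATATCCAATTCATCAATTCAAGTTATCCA
LpR2, longer: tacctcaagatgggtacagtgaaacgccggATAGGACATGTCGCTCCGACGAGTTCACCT
LpR2, shorter: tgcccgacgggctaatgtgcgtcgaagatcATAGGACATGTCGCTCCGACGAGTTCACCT
Rdl, longer: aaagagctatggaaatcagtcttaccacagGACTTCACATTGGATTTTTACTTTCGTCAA
Rdl, shorter: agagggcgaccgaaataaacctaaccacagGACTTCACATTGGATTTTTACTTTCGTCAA
unc-13-4A: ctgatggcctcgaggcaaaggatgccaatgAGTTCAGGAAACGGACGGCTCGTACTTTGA
CG42268: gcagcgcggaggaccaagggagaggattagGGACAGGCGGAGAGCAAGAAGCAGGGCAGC
beat-Vc: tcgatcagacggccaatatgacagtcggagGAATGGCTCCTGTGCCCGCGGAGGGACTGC
GluClalpha: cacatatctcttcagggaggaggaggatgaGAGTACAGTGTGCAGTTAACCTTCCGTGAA

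Long spans were built from more exons and, above all, from more intron. On the annotation of BDGP6 a member held a median of 4 exon blocks, with at most 18, against 2 and at most 8 in the remaining circRNAs. A single exon block made up 9 of the members (2.26%) and 219 of the remainder (27.5%). Exon bases between the ends had a median of 1001.5 in the members and 527.5 in the remainder, and introns took a median of 77.6% of the span against 19.7%. The CG45784 circRNA of 125063 bases shows this at its extreme, with 3 exon blocks and 755 exon bases. All but 1 of the members had the AG and GT dinucleotides of ordinary splice sites at their ends, and in 372 (93.5%) both ends were annotated exon edges, against 87.9% of the remainder. Within 1000 bases of flank on each side, a reverse complementary match of 20 or more bases, the kind of pairing that brings splice sites together in mammals, was found for 3 members and 12 of the remainder. A start codon on the same strand lay inside 153 members (38.4%) and 248 of the remainder (31.2%), and 23 members enclosed another protein-coding gene.

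The members came from 256 named host genes, and 3 had no annotated host. 68 hosts gave more than 1 member and together held 207 of them, and 177 members overlapped another member on the same strand, so that they are not independent of each other. The hosts with the most members were slo (8), a calcium-activated potassium channel, para (8), the voltage-gated sodium channel, pan (7), the TCF factor of Wnt signalling, Ca-alpha1T (7), a T-type calcium channel, CG40178 (7), and GluClalpha (7), a glutamate-gated chloride channel. Spans within a host differed widely, from 4470 to 14690 bases in slo and from 2450 to 17958 in para. Chromosome 4 had the highest proportion of its circRNAs among the members, 29 circRNAs or 39.7%, and the other arms lay between 28.3% and 36.1%.

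The members made 143386 of the 728374 circular reads (19.7%) and 922749 linear reads (8.18% of all) in the 72 libraries. Linear reads are those spliced in the ordinary way at the same ends. A member had a median of 186.5 circular reads over all libraries, with a range of 63 to 4699, and the remaining circRNAs had a median of 237.5 and reached 67873. Depth differed strongly between tissues. A brain library held 3129 to 9568 circular reads on the members, a thorax library 239 to 1125, a gut library 46 to 277 and a fat body library 301 to 1227.

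A pair of gut libraries stood apart from the other 16, the dilp 2-3,5 libraries of day 30 replicate 3 and day 50 replicate 2. They had circular reads of 103 and 144 members, where the others had reads of 29 to 94. Linear reads at the ends of the Snap25 circRNA, from a SNARE of vesicle fusion in neurons, numbered 5 and 9 in them and at most 1 in any other gut library. Those at the ends of the toy members, from the eye and brain factor twin of eyeless, numbered 21 and 18, and again at most 1 elsewhere in gut. Circular reads of the CG42402 members numbered 1 and 13, and at most 1 elsewhere in gut, so this gene marked only the day 50 library. What sets this pair of libraries apart was not tested, and the gut values they move are given with and without them. The comparisons of tissues used wDah only and do not contain them. A fat body library of wDah, day 30 replicate 1, resembled them in part. It had circular reads of 152 members, where the other fat body libraries had reads of 66 to 124. Its Snap25 linear reads numbered 12, against at most 2 in any other fat body library. Linear reads at the toy circRNA of 5818 bases numbered 8, against at most 4. This library is part of the comparison of brain with fat body, and what sets it apart was not tested.

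The member with the most circular reads was from Pkn, a protein kinase gene, with 4699, of which 44.9% were in brain. The next was CG42402 with 3827 circular reads, followed by sxc, the enzyme that adds O-linked N-acetylglucosamine to proteins, with 3718. CG43729 gave 3382 circular reads and had 346 circular per 100 linear reads in brain. That made its circular form the commoner one there, which held for 18 of the 398 members against 100 of the 796 remaining circRNAs. scro, an NK-2 homeobox factor, gave 2649 circular reads, 99.3% of them in brain. Behind these came Caps, which acts in dense-core vesicle release, with 2501, the cytoskeletal linker shot with 2115, and the Wnt receptor fz with 2090. Elk, a voltage-gated potassium channel, gave 1925 circular reads and pan 1898. These 10 held 20.1% of the circular reads of all members. Across the members, span and circular reads were barely related (Spearman's rank correlation −0.12 over 398 circRNAs of the same libraries, as a description).

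Long-span circRNAs were mostly seen in brain. The median member had 93.8% of its circular reads there, against 83.7% for the remaining circRNAs, and 243 members (61.1%) had more than 90% in brain against 39.9% of the remainder. The host genes' linear reads leaned the same way, with a median of 84.0% in brain for the members and 59.9% for the remainder. At least 1 circular read was present for 396 members in the 18 brain libraries, for 383 in thorax, for 289 in fat body (72.6% against 85.2% of the remainder) and for 268 in gut (67.3% against 79.3%). Without the pair of gut libraries that stood apart, 187 members were detected in gut (47.0% against 67.7%). The fat body counts include wDah day 30 replicate 1 and were not taken without it. The circRNAs had been kept for having enough reads in several samples. Brain libraries had the most circular reads and meet such a filter most easily, so the near-complete detection in brain is no result about the members. The part that depth has in the other detection counts was not tested. In the bulk tissue, fewer cells of a type and less RNA per cell cannot be told apart.

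From 500 to 20000 bases, detection in gut and fat body was lower in each longer class of span. In gut, 79.8% of the circRNAs up to 500 bases had a circular read, 80.5% of those between 500 and 1000 bases, 77.1% of those between 1000 and 2000 bases, 68.1% between 5000 and 10000 and 47.5% between 10000 and 20000. Fat body had values of 88.9%, 86.5%, 81.3%, 68.1% and 52.5% in the same classes. The 15 circRNAs over 20000 bases departed from this order, with 66.7% detected in gut and 86.7% in fat body. All fat body values include wDah day 30 replicate 1, which had the most members detected in that tissue. Without the pair of gut libraries the gut values were 70.2%, 71.0%, 62.9%, 40.7% and 33.9% in the same 5 classes and 40% over 20000 bases. Median circular reads also differed between the classes, from 257 at 500 to 1000 bases to 103 over 20000 bases.

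**Figure D1:**
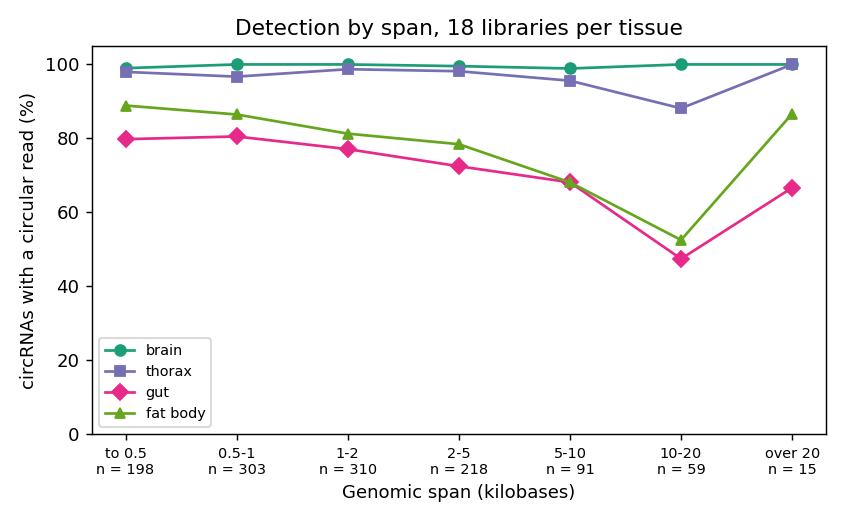
Percentage of circRNAs with at least 1 circular read (vertical axis) against the class of genomic span in kilobases (horizontal axis), over the 18 total RNA libraries of each tissue, with the number of circRNAs under each class. Brain stays near 100%, while gut goes from 79.8% in the shortest class to 47.5% at 10 to 20 kilobases and is at 66.7% in the 15 longest. Detection in brain is largely set by the filter on reads, which the brain libraries meet most easily. Without the dilp 2-3,5 gut libraries of day 30 replicate 3 and day 50 replicate 2, not drawn, the last 2 gut values are 33.9% and 40%. The fat body values include wDah day 30 replicate 1, the fat body library with the most members detected.

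As a proportion of all circular reads, the members took 18.8 to 25.8% in the brain libraries (mean 21.4 ± 2.12%, SD, n = 18), 13.8 to 16.3% in fat body (15% ± 0.770), 11.9 to 15.1% in thorax (13.7 ± 0.978%) and 7.13 to 16.9% in gut (9.84 ± 2.64%). No brain library overlapped a library of another tissue. Gut overlapped thorax and fat body only through the pair that stood apart, at 15.6% and 16.9%, and its other 16 libraries lay between 7.13 and 11.5% (9.05 ± 1.33%), below every library of the other tissues. The proportion of linear reads set brain apart more widely, at 12.7 to 22.4% against 2.67 to 5.83% over the 3 other tissues. Per 100 linear reads, the members pooled had 22.1 circular reads in brain, 7.33 in thorax, 3.40 in gut and 7.46 in fat body, against 16.7, 2.10, 1.36 and 1.89 for the remainder. The median over single circRNAs had the opposite order between the 2 classes, 17.8 against 24.6 in brain and 2.58 against 5.88 in gut. Without the pair of gut libraries the mean pooled value of the members in gut was 2.77 (1.29 for the remainder) and the median over single circRNAs 0.443 (4.13). When the 398 were instead those with the most exon bases, they took 18% in brain, 19.4% in thorax, 20.6% in gut and 29.0% in fat body, and the order of the tissues turned.

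**Figure D2:**
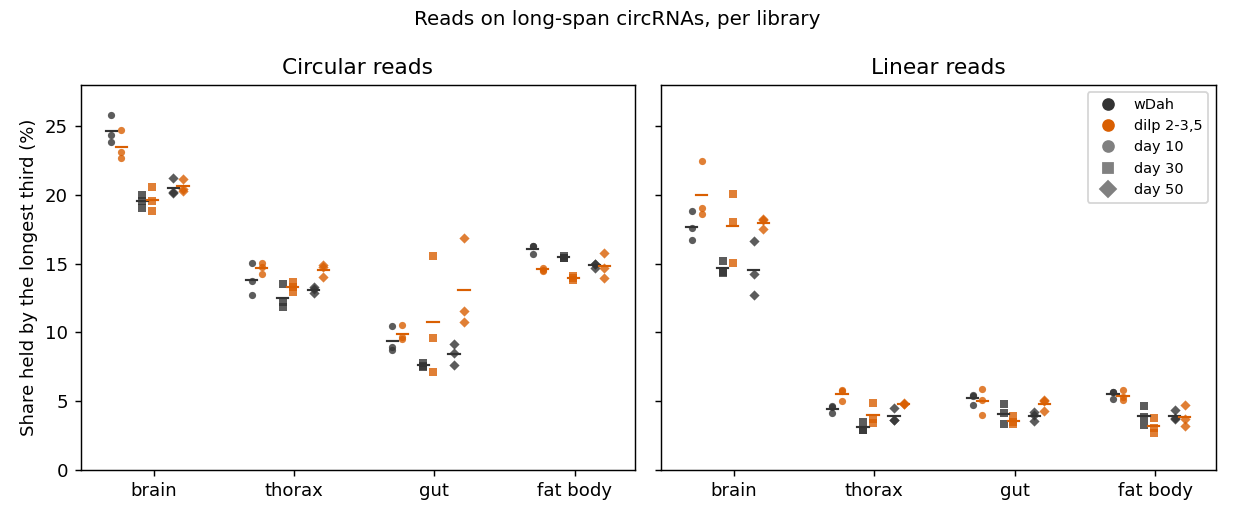
Percentage of all circular reads (left) and of all linear reads (right) on the 398 long-span circRNAs (vertical axis), 1 point per library and tissue, with genotype by colour, age by symbol and a short line for the mean of the 3 replicates. Brain libraries lie between 18.8 and 25.8% of circular reads and gut libraries between 7.13 and 16.9%, of which the 2 highest, both dilp 2-3,5, are at 15.6 and 16.9% and the other 16 at most at 11.5%.

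The members' proportion of circular reads in brain did not separate the genotypes at any age. At day 10 it was 24.7 ± 1.01% in wDah and 23.5 ± 1.05% in dilp 2-3,5 (SD, n = 3), at day 30 it was 19.5 ± 0.486% and 19.6 ± 0.886%, and at day 50 it was 20.5 ± 0.631% and 20.6 ± 0.478%, with overlapping libraries each time. In fat body the genotypes did not overlap at day 10, with 15.7 to 16.3% in wDah and 14.5 to 14.7% in dilp 2-3,5, nor at day 30, with 15.4 to 15.5% and 13.8 to 14.1%. At day 50 they overlapped. In thorax and gut the gap at day 50 was the opposite of that in fat body, with the mutants higher: 12.8 to 13.3% in wDah and 14 to 14.9% in dilp 2-3,5 in thorax, and 7.62 to 9.15% and 10.7 to 16.9% in gut, where the mutants without replicate 2 were at 10.7 and 11.5%. At days 10 and 30 the genotypes overlapped in both tissues. No test is given for these proportions.

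The next question was which members had another ratio of circular to linear reads in brain than in the other wDah tissues, with 9 libraries a tissue. edgeR's quasi-likelihood test over all circRNAs, with Benjamini-Hochberg adjustment and a threshold of 0.05, called 126 of 395 tested members between brain and thorax, 114 of them higher in brain, where 33.2% of all tested circRNAs were called and 29.4% were higher in brain. Against gut it called 122 of 387 members, 119 higher in brain, where 35.6% of all were called and 35% were higher. Against fat body it called 100 of 392 members, 82 higher in brain, where 28.5% of all were called and 24.7% were higher. The members' median log2 differences were 0.65, 0.54 and −0.06, beside 0.66, 0.84 and 0.16 over all circRNAs tested. The counts rest on the ratio: with circular reads alone they were 292, 338 and 352, and with each kind of read scaled by its own total the count against gut was 55.

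Among the members higher in brain, the cytoskeletal linker shot stood out in all 3 comparisons, which share their brain libraries. Its circular reads in wDah brain were 153, 154 and 156 at day 10, 92, 39 and 107 at day 30, and 91, 119 and 139 at day 50. The 9 thorax libraries together held 25 circular and 1522 linear reads of shot, and the 9 brain libraries 1050 and 1948. The ratio was 54.4 ± 10.3 per 100 linear reads in brain and 1.59 ± 0.776 in thorax (SD, n = 9), without overlap (log2 difference 4.99, SE 0.24, adjusted p = 3.82e-40). In gut 1 circular read stood against 990 linear reads, and in fat body 11 against 1034 (log2 difference 5.52, SE 0.29, adjusted p = 1.89e-76). shot was thus transcribed and spliced in every tissue while its circular reads were almost confined to brain.

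The other members named for their excess in brain also had linear reads in the second tissue and few circular ones. Against thorax, mtd had 125 circular reads in brain and 0 beside 147 linear reads in thorax, which is at least 8.46-fold higher in brain, taking 3 reads for 0. The cation channel gene Trpm had 44 and 0, at least 7.75-fold. The second CG43729 circRNA had 75 reads in brain and 1 in thorax (ratio 65.6, 95% exact interval 11.4 to 2626), and the anion exchanger Ndae1 had 62 and 1 (35.3, 6.11 to 1418). Against gut, the casein kinase gene gish was at least 36.9-fold higher in brain (94 reads and 0), the palmitoyltransferase gene app at least 33.4-fold (159 and 0), and the chromatin remodeller kis at least 31.2-fold (385 and 0). Bsg, which encodes basigin, had 173 circular reads in brain and 2 in gut (213, 58.1 to 1774). Against fat body, Ndae1 was at least 35.3-fold higher in brain, the RNA-binding protein gene shep at least 25.4-fold and tweek, which acts in synaptic vesicle recycling, at least 24.5-fold. bl, the fly hnRNP K, had 558 circular reads in brain and 2 in fat body (92.1, 25.4 to 762). None of these members had overlapping ratios between the 2 tissues concerned. Such limits and intervals cover counting error only.

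A smaller set of members went the other way, and the widest gap was in GluClalpha, whose 14440-base circRNA holds 10 exon blocks. In wDah brain it had 1 circular read in each of 3 libraries and 0 in the other 6, beside 55 to 152 linear reads per library. In thorax it had 28, 11 and 25 circular reads at day 10, 4, 6 and 14 at day 30, and 11, 6 and 13 at day 50, beside 10 to 22 linear reads. Fat body gave 22 circular and 21 linear reads over 9 libraries, and the groups did not overlap in either comparison. The summed reads were 118 circular and 141 linear in thorax against 3 and 865 in brain, a ratio 241 times as high in thorax (95% exact interval 80.6 to 1187, adjusted p = 2.93e-30), and 302 times as high in fat body (90.7 to 1576). A gene with most of its linear reads in brain thus had nearly all reads of this circRNA elsewhere, while other members of the same gene reached 97.6% of circular reads in brain.

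Further members were lower in brain than in at least 1 other tissue. Sap47, a synapse-associated protein gene, had 15 circular and 1220 linear reads in brain against 28 and 165 in thorax (log2 −3.64, SE 0.52, adjusted p = 2.44e-09) and 28 and 134 in fat body (log2 −4.06). Snap25 had 75 and 2526 in brain against 125 and 336 in thorax (log2 −3.32, SE 0.32, adjusted p = 9.43e-17). A pan circRNA of 5363 bases was also lower in brain than in thorax (log2 −2.96). In each of these, single libraries of the 2 tissues overlapped. Libraries also overlapped in Cals and Mical. Cals, which encodes calsyntenin, had 2 circular reads in brain and 45 in fat body (ratio 66.3, 17.3 to 564), and Mical, an enzyme that oxidises actin, had 1 and 22 (42.4, 6.85 to 1749). In gut Mical had 10 circular reads (13.1, 1.86 to 568). A toy circRNA is also named by the rule against gut, but it had 1 circular and 0 linear reads there, its call was lost in 12 of 18 fits with 1 library left out, and its direction turned with circular reads alone.

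LpR2, the lipophorin receptor, used different long circRNAs in different tissues. The one of 29598 bases had 216 of its 235 circular reads in gut. In wDah gut it had 12, 27 and 31 circular reads at day 10, 7, 7 and 17 at day 30, and 3, 1 and 9 at day 50, against 4 in the 9 brain libraries together. The ratio was 26.2 ± 11.4 per 100 linear reads in gut and 0.456 ± 0.639 in brain (SD, n = 9; log2 −5.49, SE 0.44, adjusted p = 6.84e-17), without overlap. The LpR2 circRNA of 3587 bases had 112 of 119 reads in fat body, where its wDah libraries had 1 to 25, and 0 in brain, and was at least 6.32-fold lower in brain than in fat body. The one of 3231 bases, whose junction shares its acceptor, had 700 of 823 reads in fat body.

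Between the genotypes, brain gave most of the calls. edgeR's test called 2 of 373 members at day 10, where 0.182% of all circRNAs were called, 6 of 366 at day 30 (0.645% of all) and 7 of 371 at day 50 (1.19% of all). Higher in dilp 2-3,5 were 1, 1 and 4 of them, beside 0.0908%, 0.184% and 0.549% of all circRNAs, and lower were 1, 5 and 3, beside 0.0908%, 0.461% and 0.641%. At an unadjusted p under 0.05 the members numbered 12, 38 and 50, where 4.18%, 8.2% and 11.1% of all circRNAs were. The 15 calls fell on 10 members. The median log2 differences of all tested members were −0.00, −0.18 and −0.20, beside 0.01, −0.13 and −0.17 over all circRNAs. DESeq2 called 1 member over the 3 ages, and with 1 library left out the 15 calls became 10 to 17.

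In the Sug circRNA, every dilp 2-3,5 brain library was at 0. Circular reads of the wDah brains were 43, 22 and 22 at day 10, 24, 9 and 33 at day 30, and 29, 31 and 50 at day 50. The 9 dilp 2-3,5 brains had 0, which over 140 linear reads allows up to 3. The linear reads were also fewer in the mutants, 308 against 78, 160 against 37 and 200 against 25 at the 3 ages. Against linear reads, Sug was at least 7.34-fold lower in dilp 2-3,5 at day 10, at least 5.09-fold at day 30 and at least 4.58-fold at day 50 (adjusted p = 0.0390, 0.0187 and 0.00536). The other tissues had few reads, in thorax 38 circular in wDah and 2 in dilp 2-3,5, in fat body 13 and 0, and in gut 4 and 0. Sug lies outside the naming rule for want of a place among the first 5 and was chosen after its values were seen. Its calls were lost in 6 of 6, 2 of 6 and 1 of 6 fits without 1 library, with adjusted p up to 0.414 without dilp 2-3,5 replicate 3 at day 10, up to 0.198 without dilp 2-3,5 replicate 2 at day 30 and 0.0575 without dilp 2-3,5 replicate 3 at day 50.

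beat-Vc, one of the beaten path family of immunoglobulin-domain proteins in axon guidance, was lower in the mutant brains with both kinds of read reduced. Its circular reads in wDah were 56, 29 and 26 at day 10, 69, 29 and 104 at day 30, and 40, 50 and 46 at day 50. In dilp 2-3,5 they were 8, 2 and 5, then 1, 9 and 0, then 3, 3 and 3, below every wDah library. At day 50 the ratio was 175 ± 22.9 per 100 linear reads in wDah and 31.6 ± 5.30 in the mutants (SD, n = 3; log2 −2.43, SE 0.53, adjusted p = 0.00536), and the day 30 difference was also called (log2 −2.76, SE 0.60, adjusted p = 0.0132). At day 10 the ratios did not overlap either, but the difference did not pass (log2 −2.33, adjusted p = 0.236). The day 50 call held in all 6 fits without 1 library and not in DESeq2 (adjusted p = 0.122). The day 30 call was lost without dilp 2-3,5 replicate 1 (adjusted p = 0.0576).

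In 3 members named by the rule the mutants were higher. unc-13-4A belongs to the Unc13 family, which primes vesicles for release. At day 50 it had 0 circular reads in each wDah brain and 10, 14 and 23 in dilp 2-3,5, at least 8.95-fold higher against linear reads (adjusted p = 1.68e-04), and this call held in all fits without 1 library and in DESeq2 (adjusted p = 0.038). At days 10 and 30 the unc-13-4A ratios did not overlap either, but the differences did not pass (log2 1.72 and 2.57, adjusted p = 0.807 and 0.121). At day 10 CG42268 had 6, 3 and 2 circular reads in wDah and 34, 16 and 22 in the mutants (log2 2.61, SE 0.56, adjusted p = 0.0390). At day 30 it had 0 in wDah and 4, 14 and 7 in dilp 2-3,5, at least 7.77-fold higher, and at day 50 the ratio was 16 times as high (95% exact interval 4.02 to 139). Its linear reads were close in the 2 genotypes, 1021 and 1020 over the 9 brains of each. At day 50 CG32085 had 1, 2 and 1 circular reads in wDah and 20, 22 and 18 in the mutants (log2 2.69, SE 0.60, adjusted p = 0.00536). Its day 30 difference did not pass (log2 2.79, adjusted p = 0.0561). Libraries of the 2 genotypes did not overlap in any of these ratios. The CG42268 call at day 10 was lost in 5 of 6 fits without 1 library, with an adjusted p of 0.735 without wDah replicate 3, and those at days 30 and 50 were lost in 1 of 6 each, without dilp 2-3,5 replicate 2 (adjusted p = 0.0567) and without wDah replicate 2 (0.061). The CG32085 call was lost in 2 of 6, with 0.168 without wDah replicate 3.

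The remaining calls were single ages. At day 30 CG14082 had 15, 16 and 25 circular reads in wDah and 0, 2 and 3 in the mutants (log2 −3.41, SE 0.70, adjusted p = 0.00780), which was lost without dilp 2-3,5 replicate 2 (adjusted p = 0.330). The CG40178 circRNA of 37245 bases, named as the fifth longest of all, at day 30 had 21, 9 and 14 circular reads in wDah and 2, 5 and 5 in the mutants beside almost equal linear reads, 1488 and 1539 (log2 −1.89, SE 0.42, adjusted p = 0.0159). The other 3 members lie outside the naming rule and were chosen after their values were seen. A2bp1, the fly Rbfox splicing factor, held 2 called members that went opposite ways, the first with 36 against 4 reads at day 30 (log2 −3.02, SE 0.71, adjusted p = 0.0214) and the second with 13 against 58 at day 50 (log2 1.65, SE 0.43, adjusted p = 0.0195). At day 50 CG32432 had 73, 86 and 111 circular reads in wDah and 56, 59 and 46 in the mutants (log2 −0.80, SE 0.21, adjusted p = 0.0195). Without 1 library these 4 calls reached adjusted p of 0.123 and 0.176 without dilp 2-3,5 replicate 2 at day 30, 0.407 without wDah replicate 3 and 0.168 without dilp 2-3,5 replicate 1 at day 50.

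**Figure D3:**
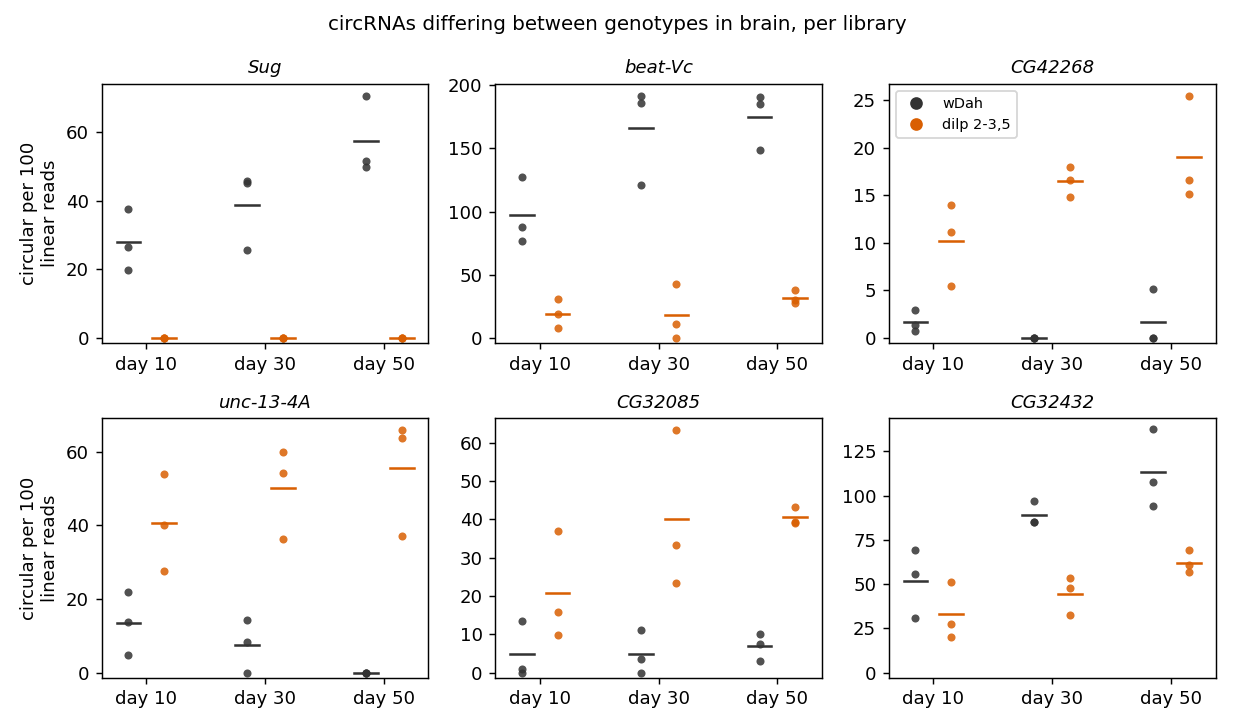
Circular reads per 100 linear reads (vertical axis) in each brain library at days 10, 30 and 50 for 6 members called between genotypes, wDah in black and dilp 2-3,5 in orange, with a line for the mean of the 3 replicates. Sug is at 0 in all dilp 2-3,5 libraries and beat-Vc lies below wDah throughout. CG42268 and unc-13-4A lie above wDah at every age, and CG32085 at days 30 and 50. Of these ages, unc-13-4A and CG32085 were called only at day 50.

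Of the 10 members called between genotypes in brain, 9 lay on arm 3L, which also carries the 3 deleted genes. The deleted genes sit at 3L:9799698-9800440 (Ilp2), 3L:9801298-9802120 (Ilp3) and 3L:9823349-9823897 (Ilp5). Arm 3L held 79 of the 382 tested members (20.7%), and 11.4% of these were called against 0.330% of the tested members elsewhere. Among the remaining circRNAs 3 of 6 called lay on 3L, which held 17.9% of those tested. Over all circRNAs 12 of 16 called lay there, where 18.8% of those tested lay. The nearest called member, CG42268, ends 49.4 kb from the deleted genes, followed by the 2 of A2bp1 at 744 and 750 kb, CG32085 at 1844 kb, Sug at 1862 kb and unc-13-4A at 2520 kb. CG14082 at 9286 kb, CG32432 at 11030 kb and CG40178 at 16100 kb were farther away. Within 1000 kb 3 of 10 tested members were called, from 1000 to 3000 kb 3 of 10, from 3000 to 10000 kb 1 of 36, and beyond 10000 kb 2 of 23. The median distance was 1862 kb for the 9 called and 5220 kb for the 79 tested. Distances were taken for the members only, so nothing particular to long spans is read from them. These are counts on 1 mutant line, and the part that position on the arm has in the calls was not tested.

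**Figure D4:**
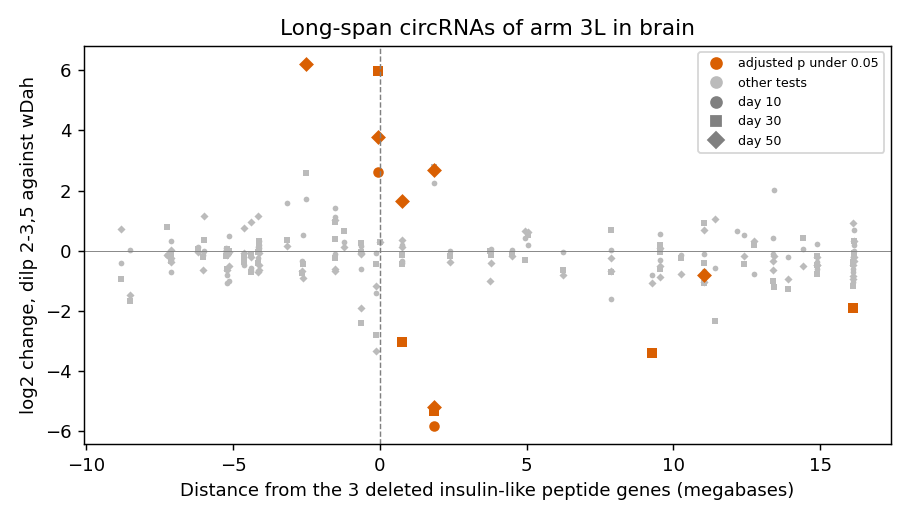
Log2 difference of the circular to linear ratio between dilp 2-3,5 and wDah brain (vertical axis) against distance from the 3 deleted insulin-like peptide genes in megabases (horizontal axis) for the members on arm 3L, with 1 point per member and age and the called tests in orange. Fitted values where 1 genotype had 0 circular reads have no fixed size, and most called points lie between −2.52 and 1.86 megabases.

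Outside brain few members were tested between genotypes and fewer were called. In thorax edgeR called 1 of 125 members at day 10 (1.87% of all circRNAs), 0 of 76 at day 30 (0% of all, with 5 members at an unadjusted p under 0.05) and 1 of 85 at day 50 (1.01% of all). Both calls were Scp1, a sarcoplasmic calcium-binding protein gene, with 144 of its 146 circular reads in thorax. At day 10 it had 23, 16 and 24 circular reads in wDah and 6, 9 and 9 in the mutants, beside 2840 and 3415 linear reads (log2 −1.64, SE 0.36, adjusted p = 0.00570). At day 50 it had 2, 8 and 12 against 2, 2 and 6, with overlapping ratios (log2 −2.40, adjusted p = 0.0222). The calls were lost without dilp 2-3,5 replicate 1 at day 10 (adjusted p = 0.144) and in 4 of 6 fits at day 50, with 0.364 without wDah replicate 2. DESeq2 called neither.

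In gut edgeR called 0 of 34, 0 of 10 and 0 of 14 members at the 3 ages (0%, 1.54% and 0% of all circRNAs), with 3, 1 and 0 at an unadjusted p under 0.05 and 0 by DESeq2. In fat body it called 1 of 68 members at day 10 (3.95% of all), 0 of 46 at day 30 and 0 of 44 at day 50 (0% of all at both), with 1 member at an unadjusted p under 0.05 at each of the later ages and 0 by DESeq2. The called member, pyd, which encodes the junction protein ZO-1, at day 10 had 5, 11 and 10 circular reads in wDah and 29, 21 and 27 in the mutants (log2 1.78, SE 0.54, adjusted p = 0.0326), without overlap. It lies outside the naming rule, since its direction was not the same at every age, and was chosen after its values were seen. The call was lost in 4 of 6 fits without 1 library, with an adjusted p of 0.237 without dilp 2-3,5 replicate 3. The median of the fat body members at day 10 was 0.90 on the log2 scale, beside 0.81 over all circRNAs. Leaving out wDah replicate 2 raised the count of called members in fat body from 1 to 12, and leaving out dilp 2-3,5 replicate 2 raised it to 8, while each of the other 4 day 10 libraries left out took it to 0.

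Between days 30 and 50, 1 of 367 members was called in wDah brain, where 0.278% of all circRNAs were called, and 0 of 366 in dilp 2-3,5 brain (0% of all, with 44 members at an unadjusted p under 0.05 and 0 by DESeq2). The median log2 change was 0.21 in wDah and 0.27 in dilp 2-3,5, beside 0.18 and 0.20 over all circRNAs. The called member was Snap25, with 1, 1 and 7 circular reads beside 424, 189 and 169 linear reads at day 30, and 12, 6 and 5 beside 70, 110 and 123 at day 50 (log2 2.67, SE 0.61, adjusted p = 0.0260). Its ratios overlapped between the ages, and the call was lost in 3 of 6 fits without 1 library, with an adjusted p of 0.646 without wDah replicate 1 at day 50. In the other tissues edgeR called 0 of 11 to 95 members in each genotype (0% of all), with 0 to 8 at an unadjusted p under 0.05 and 0 by DESeq2. No member differed between genotypes in its change from day 30 to day 50 in brain (0 of 380 by edgeR, 0% of all circRNAs, 17 members at an unadjusted p under 0.05, 0 by DESeq2).

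Against day 10, where age and batch cannot be told apart, many more members passed in brain. In wDah 94 of 378 were called, 88 higher at day 50, where 26.2% of all circRNAs were called and 24.4% were higher, and in dilp 2-3,5 38 of 377, 36 higher (11.8% of all called and 11.1% higher). Without wDah replicate 1 of day 50 the 132 calls became 84. The median log2 difference was 0.76 in wDah and 0.54 in dilp 2-3,5, beside 0.72 and 0.51 over all circRNAs. The largest gaps, named after their values were seen, included DAAM, a formin that builds actin filaments, with 1 circular read at day 10 and 52 at day 50 in wDah while its linear reads were 211 and 92 (ratio 119, 95% exact interval 20.5 to 4800). In dilp 2-3,5 DAAM had 1 and 54 (141, 24.2 to 5665). HDAC4, a histone deacetylase gene, had 10 and 99 in wDah and 9 and 100 in dilp 2-3,5 (log2 3.26 and 3.50). The CG32982 circRNA of 1936 bases, at the very limit of the span rule, had 2 and 29 in wDah and 2 and 36 in dilp 2-3,5. Members of pan went both ways: the one of 5053 bases had 370 circular reads at day 10 and 65 at day 50 in wDah (log2 −1.60, SE 0.27, adjusted p = 1.43e-04), and the longest, of 22295 bases, was higher at day 50 (log2 1.24, SE 0.28, adjusted p = 0.00199).

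Elsewhere the members called between days 10 and 50 were mostly lower at day 50. Thorax had 11 of 100 members called in wDah, 8 of them lower (13.9% of all circRNAs called and 9.27% lower), and 10 of 120 in dilp 2-3,5, 9 of them lower (16.4% called and 11.5% lower). Gut had 0 of 17 in wDah (14.5% of all, 1 at an unadjusted p under 0.05, 0 by DESeq2) and 1 of 27 in dilp 2-3,5 (5.61% of all), a ctrip circRNA named after its values were seen, with 17 circular reads at day 10 and 2 at day 50 (log2 −3.08, SE 1.01, adjusted p = 0.0447). Without dilp 2-3,5 replicate 2 of day 50, of the pair that stood apart, 0 of 21 were called there. Fat body had 2 of 60, both higher, in wDah (8.52% of all called and 5.99% higher) and 2 of 66, both lower, in dilp 2-3,5 (6.49% called and 5.31% lower). Without dilp 2-3,5 replicate 1 of day 50 the 4 calls in fat body became 13.

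The polysome experiment asked which circRNAs are found with ribosomes in fat body at day 10. Its table holds 206 circRNAs, of which 30 are members and 16 of these enclose a start codon. Of the 206, 35 span at least 1930 bases, and those that are not members are counted here with the remaining circRNAs. In total RNA the members pooled had 5.85, 8.28 and 6.21 circular per 100 linear reads in wDah and 12.7, 8.52 and 13.3 in dilp 2-3,5. In polysomes they had 3.95, 4.98 and 2.10 in wDah and 3.48, 3.81 and 1.99 in dilp 2-3,5, below every total RNA library of the same genotype. The remaining circRNAs of dilp 2-3,5 were at 7.39, 4.67 and 6.20 in total RNA and 1.96, 1.96 and 1.32 in polysomes. The members held 12.2 to 14.6% of circular reads in total RNA and 12.6 to 19.0% in polysomes.

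edgeR called 16 of 30 members in dilp 2-3,5, all lower in polysomes, where 57.8% of all circRNAs were called, and 0 of 30 in wDah (0% of all, 3 members at an unadjusted p under 0.05, 0 by DESeq2). The medians were −1.54 in dilp 2-3,5 and −0.56 in wDah, beside −1.52 and −0.58 over all circRNAs, and the difference between the genotypes was not tested. The study scaled polysome reads to total RNA counts. With circular reads alone, or with each kind of read scaled by its own total, 0 of the members were called in dilp 2-3,5, so these calls rest on the linear reads they are set against.

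Pkn was the most abundant member in polysomes. In dilp 2-3,5 it had 335, 197 and 259 circular reads in total RNA and 114, 99 and 64 in polysomes, beside similar linear reads, 420 and 424 (log2 −1.53, SE 0.39, adjusted p = 6.89e-04). In wDah it had 94, 132 and 113 in total RNA and 39, 72 and 41 in polysomes, with overlapping ratios (log2 −0.81, SE 0.52, adjusted p = 0.493). Acsl and ACC, 2 enzymes of lipid metabolism, were among the 5 calls of smallest p, and no theme is read from them. Acsl, an acyl-CoA synthetase gene, had 26, 17 and 20 circular reads in total RNA and 5, 4 and 2 in polysomes of dilp 2-3,5, while its linear reads were 3120 and 4336 (log2 −2.96, SE 0.62, adjusted p = 4.07e-05). ACC, acetyl-CoA carboxylase, had 60, 29 and 38 against 12, 12 and 12 (log2 −1.96, SE 0.53, adjusted p = 0.00120). LpR2 (3231 bases) had 61, 28 and 57 against 19, 19 and 14 (log2 −2.04, SE 0.45, adjusted p = 9.55e-05), and sxc had 36, 27 and 41 against 13, 12 and 6 (log2 −1.99, SE 0.47, adjusted p = 2.52e-04). CG17646, an ABC transporter gene of the white family, had 97, 41 and 62 against 45, 38 and 13 for its member of 2120 bases (log2 −1.34, SE 0.43, adjusted p = 0.00637), which was lost in 3 of 6 fits without 1 library, with an adjusted p of 0.105 without polysome replicate 3. The calls of Pkn, Acsl, ACC, LpR2 and sxc held in all 6. Directions turned in some of these members under another readout, none of them called. With each kind of read scaled by its own total Pkn was at 0.26 and CG17646 at 0.47 on the log2 scale, and with circular reads alone Pkn was at 0.21, LpR2 at 0.25 and CG17646 at 0.67. None of these ratios overlapped in dilp 2-3,5. The 16 calls became 6 without total RNA replicate 1 of dilp 2-3,5, 9 without total RNA replicate 3 and 9 without polysome replicate 3.

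**Figure D5:**
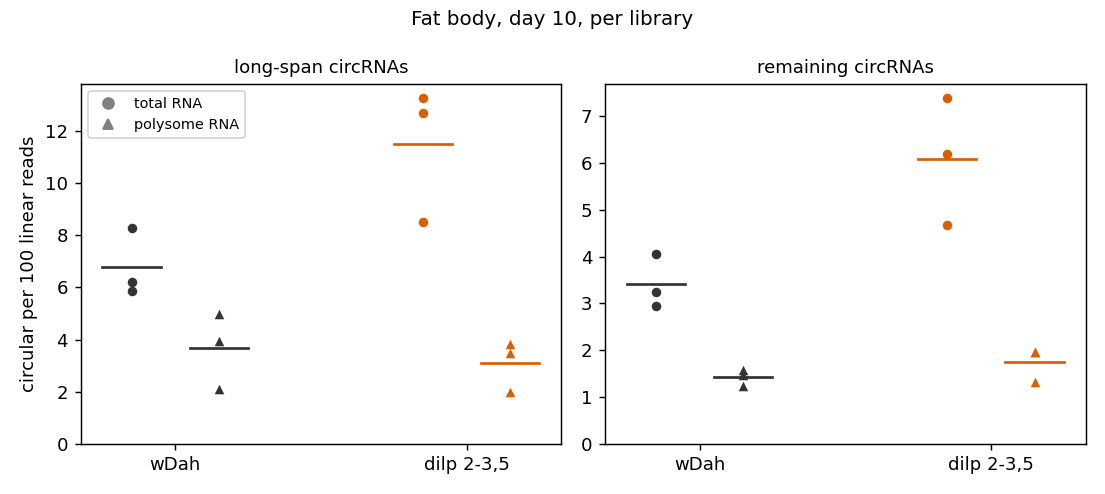
Circular reads per 100 linear reads (vertical axes, on separate scales) pooled over the 30 long-span members (left) and the remaining circRNAs (right) in each day 10 fat body library of total RNA (circles) and polysome RNA (triangles), with a line for the mean of the 3 replicates. In dilp 2-3,5 the members go from 8.52 to 13.3 in total RNA to 1.99 to 3.81 in polysomes. The remaining circRNAs include a few of similar span that are not members.

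By function, 210 members from 125 host genes fell into 10 lists of genes. Ion channels were the largest neuronal group, with 38 members from 12 voltage-gated or calcium-activated channel genes and 15 from 5 ligand-gated ones, and Ca-alpha1T (1594 circular reads), a para circRNA (1174) and Rdl (1015) led after Elk. The channel members had a median of 95.6% and 95.3% of circular reads in brain. The list counts below stand beside 29.4%, 35% and 24.7% of all tested circRNAs that were higher in brain than in thorax, gut and fat body. Of the voltage-gated group 8 of 38 had a higher ratio in brain than in thorax, 8 of 38 than in gut and 1 of 38 than in fat body, and 0 had a lower one. Of the ligand-gated group 6 of 15 were higher in brain than in thorax and 2 lower, 0 of 14 were called against gut, and against fat body 2 of 15 were higher and 1 lower. Against day 10, 10 of 37 voltage-gated members were higher and 1 lower at day 50 in wDah (24.4% of all circRNAs higher), and 2 higher in dilp 2-3,5 (11.1% of all higher).

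Synaptic, adhesion and receptor genes gave 35, 27 and 11 members. The active zone and synapse list was led by Caps and by a Sap47 circRNA of 3762 bases (1634 circular reads, 98.5% in brain), which differs in its donor end from the Sap47 circRNA that was lower in brain. Of its members 8 of 35 were higher in brain than in thorax and 4 lower (29.4% of all circRNAs higher), 5 of 32 were higher than in gut, and against fat body 3 of 32 were higher and 2 lower. The adhesion list, led by the receptor phosphatase Ptp99A (672 circular reads) and by axo (659), had 6 of 27 members higher in brain than in gut (35% of all circRNAs), and 1 higher and 1 lower against each of thorax and fat body. The receptor list was led by the serotonin receptor 5-HT1A (1602) and by TrissinR (781), and 1 of its 11 members was higher in brain than in thorax. Cyclic nucleotide signalling had 9 members, led by Epac (872) and the phosphodiesterase Pde1c (422), and 4 of 9 were higher in brain than in thorax, 4 than in gut and 3 than in fat body, with 1 lower.

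Transcription, cytoskeleton and RNA-binding genes gave 43, 17 and 13 members. In the transcription and chromatin list 22 of 43 members were higher in brain than in gut and 1 lower, with a median log2 difference of 1.97 beside 0.84 over all circRNAs, and sxc, scro and kis belong to it. In the list for cytoskeleton and muscle 11 of 16 were higher in brain than in fat body and 2 lower (median 2.29 beside 0.16), and 9 of 16 were higher than in thorax. The members with the most circular reads were shot and fry, the latter with 944 circular reads. The RNA-binding proteins, led by A2bp1 (1468) and bru-3 (1313), had 5 of 13 higher in brain than in thorax, 5 than in gut and 4 than in fat body. Insulin and TOR signalling held 2 members, Pkn and the GSK3 kinase sgg (217). The members of a list share host genes, and nothing particular to a list is read from these counts.

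Tissue labels were checked against marker genes in the authors' pooled FPKM. All 4 brain, all 4 thorax and all 3 gut markers found had every value in their tissue above all values elsewhere. That held for 0 of the 3 fat body markers found (Fbp1, Lsp2 and Yp1). apolpp, also chosen as a fat body marker, was not found by its symbol and gave no check. Yp1 had its largest value in the labelled fat body (0 to 29708 FPKM, and 6787 to 19681 in thorax). So had Fbp1, at low values (0.193 to 2.53, and 0.741 to 2.41 in thorax). Lsp2 was at 0.836 to 10.3 in the labelled fat body and 35.9 to 428 in thorax. Ilp2 had 101 to 388 FPKM in wDah brain and at most 0.580 in dilp 2-3,5 brain, and Ilp3 and Ilp5 were at most 0.168 there.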

How the data were processed

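Total RNA libraries of 4 tissues, 2 genotypes and 3 ages (72, with 3 in each group) and polysome RNA of fat body at day 10 (6 libraries) were grouped by their labels. The authors mapped reads to BDGP6 with STAR 2.5.2b, called circRNAs with DCC and kept those with enough reads in several samples. The deposited counts are not normalized and give, for each circRNA, the reads that cross its backsplice (circular) and those that use its ends in ordinary splicing (linear). The deposited FPKM values (HISAT2 2.0.4, StringTie 1.3.0, Cuffdiff 2.2.1, as the submitters' processing notes name them) are pooled per group and served only to check labels. The authors' own p-values, from beta-binomial tests, were left aside. No linear count of a member was above 7000, while 423 counts of the remaining circRNAs were, up to 8044.

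Members were ranked by end minus start plus 1, ties in file order. The members, lists and tests were chosen with earlier results of these data known. For each comparison, edgeR 4.0.16 (R 4.3.3) was given 2 columns for each library, circular and linear, under 1 shared library size. The model had library terms, the contrast of circular with linear reads and the interaction of that contrast with the group (with age for tissues). A minimum of 10 reads of each kind, summed over the fitted libraries, was set, and the quasi-likelihood F test was adjusted over all circRNAs that met it (Benjamini-Hochberg, 0.05). The fits were tested on simulated data with the same circular share in every library. Real libraries differ in that share, and the simulation does not cover this. Where a group had 0 circular reads the fold was taken against 3 reads over the group, and with 1 to 3 reads the ratio has an exact Clopper-Pearson interval at 95%. Reads without molecular identifiers are not independent molecules, so these cover counting error only. Exon blocks, start codons and junction bases came from the reference genome and annotation of BDGP6 in Python 3.11.15 (pandas 2.3.3, numpy 2.4.6, scipy 1.17.1, matplotlib 3.10.9).

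Named circRNAs were the 5 longest and the 2 on each side of the limit, the 10 with the most circular reads, up to 5 per tissue called between genotypes with 1 direction at all ages, up to 3 per tissue and genotype called between days 30 and 50, up to 5 per direction and tissue comparison by size, up to 5 called and the 3 most abundant in polysomes, the leaders of hosts with 7 or more members, and the first 1 or 2 of each list. Others are marked where they appear. Alternatives were DESeq2 1.42.0, other scalings, other minimums, leaving out linear counts over 7000, a replicate block, other definitions of the members, and leaving out each library. Same-numbered libraries were not taken as paired, since every pair correlated above 0.1 in 0 of 22 comparisons (lowest −0.12, highest 0.21).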

Additional observations from a re-analysis of the deposited data

Results flagged for a closer look

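A sif circRNA of 2649 bases (3L:5703925-5706573, from the Rac activator gene still life) was called in opposite directions in 2 tissues of wDah between days 10 and 50, where age and batch cannot be told apart. In brain its reads were 211 circular and 956 linear at day 10 and 154 and 327 at day 50, a log2 difference of 1.06 (SE 0.30, edgeR adjusted p = 0.0110). In thorax they were 13 and 20 at day 10 and 2 and 28 at day 50, a log2 difference of −3.01 (SE 0.95, adjusted p = 0.0169), or a ratio 9.10 times as high at day 10 (95% exact interval 2.06 to 83.1). The libraries did not overlap between the ages in either tissue. The difference between the tissues itself was not tested, and the thorax value rests on 15 circular reads. The members' proportions of circular and linear reads and their pooled ratio were checked in the 9 libraries of each tissue and genotype, 24 groups in all, where chance alone would mark about 1 group in 20. In 1 of them a library stood far from the others: dilp 2-3,5 fat body of day 50 replicate 3 had 15.8% of its circular reads on the members, and the next highest had 14.7%. The pair of dilp 2-3,5 gut libraries with the most members detected was not marked by this check, which compares 1 library at a time with its nearest neighbour.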

How the results depend on the processing

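With 1 library left out, members called ranged between 10 and 17 for genotype in brain, 1 and 3 in thorax, 0 and 12 in fat body and 0 in gut, between 0 and 2 for day 50 against 30 in brain and 0 elsewhere, and between 84 and 157, 12 and 22, 0 and 2, and 2 and 13 for day 50 against 10 in brain, thorax, gut and fat body. They ranged between 105 and 132, 113 and 130, and 88 and 102 for brain against thorax, gut and fat body, between 6 and 21 for dilp 2-3,5 polysomes, and were 0 for wDah polysomes and for the interaction. Among 73 named tests, 44 kept their call in all fits without 1 library and 37 under all other alternatives.

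DESeq2 called 1 member for genotype in brain (15 in edgeR), 0 in thorax (2) and 0 in fat body (1), 0 for day 50 against 30 in brain (1), 56, 1, 0 and 0 for day 50 against 10 in brain, thorax, gut and fat body (132, 21, 1 and 4) and 10 in dilp 2-3,5 polysomes (16). With each kind of read scaled by its own total there were 27 for genotype in brain, 0 in fat body, 2 for day 50 against 30 in brain, 11, 0 and 7 for day 50 against 10 in thorax, gut and fat body, 55 for brain against gut and 0 in dilp 2-3,5 polysomes. Circular reads alone gave 28 for genotype in brain, 0 for day 50 against 10 in gut, 292, 338 and 352 for brain against thorax, gut and fat body, and 0 in dilp 2-3,5 polysomes. Without a minimum there were 0 for genotype in fat body, and 9 and 0 for day 50 against 10 in thorax and gut, and with a minimum of 30 reads 13 and 0. Leaving out linear counts over 7000 gave 0 for day 50 against 10 in gut. The replicate block, which has no basis in pairing here, gave 12 for genotype in brain, 0 in fat body and 0 for day 50 against 30 in brain, and changed no other count by more than 1.5 times.

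Other members moved counts too. With only the longest 1 in 4 circRNAs there were 7 for genotype in brain, 0 and 1 for day 50 against 10 in gut and fat body, and 10 in dilp 2-3,5 polysomes, and the proportion of circular reads was 15.4% in brain, 10.2% in thorax, 6.83% in gut and 8.01% in fat body. The same number of circRNAs by exon bases gave 8 for genotype in brain and 4 in fat body, 0 for day 50 against 30 in brain, 4 and 8 for day 50 against 10 in gut and fat body, and 46 in dilp 2-3,5 polysomes, with proportions of 18%, 19.4%, 20.6% and 29.0% in brain, thorax, gut and fat body. Without Pkn, the most abundant member, the proportion in fat body was 12.4%. Without the most abundant of the remaining circRNAs, an alternative chosen after seeing the data, it was 23.9% in brain and 16.6% in fat body. Without the dilp 2-3,5 gut libraries of day 30 replicate 3 and day 50 replicate 2, also left out after seeing the data, there were 0 for day 50 against 10 in gut, the proportion in gut was 9.05%, and the counts of 0 for genotype and for day 50 against 30 in gut stayed at 0. The alternatives for day 50 against 10 and for the interaction were also added then.

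Directions turned in dilp 2-3,5 polysomes for CG17646 (0.47 for the member of 2120 bases and 0.20 for that of 4370 bases), Pkn (0.26) and pyd (0.46) with each kind of read scaled by its own total, and for CG17646 (0.67 and 0.31), LpR2 (0.25) and Pkn (0.21) with circular reads alone, none of them called. toy against gut turned to 4.08 with circular reads alone. The cause of these shifts was not tested. Gut limits the depth most, with 46 to 277 circular reads on the members per library.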
